A study of Danio rerio with 6 samples.

Results

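Glycolysis is the chain of cytosolic enzymes that splits glucose into pyruvate, lactate dehydrogenase interconverts pyruvate and lactate, and the pyruvate dehydrogenase complex passes pyruvate into the mitochondrial citric acid cycle. Most vertebrate steps are run by several paralogous genes (isozymes) whose use differs between tissues, and zebrafish often keep a further pair of copies of each. Iridophores are pigment cells whose color comes from stacked purine crystals, and purine synthesis draws on these pathways for ATP and for the precursors of serine and aspartate. The rows described here are those of a zebrafish count table whose symbols match 26 patterns for the enzymes from hexokinase to malate dehydrogenase, with pyruvate carboxylase and phosphoenolpyruvate carboxykinase. They number 60 of the 11016 rows, of which 1 (pkmyt1, a cell cycle kinase) matches by its letters alone, which leaves 59 enzyme rows. A further 11 RefSeq symbols that the patterns cover, among them hk1, eno1a, idh1, dlat and pdha1a, had no row with or without a numeric suffix. They include dld, deltaD, which matches by its letters alone. The symbols hk2, idh3b, idh3g and suclg2 had suffixed rows only.

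The study compared iridophores sorted by flow cytometry with a general cell population sorted as the control, with 3 libraries of each. Both came from wild-type larvae at 5 days post fertilization that carried the transgene Tg(pnp4a:PALM-mCherry), in which the promoter of the iridophore gene pnp4a drives a membrane-bound red fluorescent protein. The strain is not given, no treatment differed between the groups, and about 20000 cells made up each sample. Whether the control sort left out reporter-positive cells is not labelled, nor that replicates came from separate clutches beyond calling them biological replicates, so p-values measure the spread between these samples.

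Iridophore libraries held 616439 to 1686552 counts and control libraries 1612637 to 3282480, so that a level of 3 counts meant 1.69 to 5.50 CPM (counts divided by the scaled total of their library) in iridophore libraries and 0.897 to 1.79 CPM in control libraries. Of 14 tested iridophore markers 13 were higher and 0 lower, with a median log2 fold change of 5.69, and pnp4a itself had 2406 ± 524 CPM in iridophores against 15.7 ± 5.78 CPM in control cells (SD, n = 3 each). Replicate 1 of both groups lay apart from replicates 2 and 3 on the second principal component (13.7% of the variance), and its library names end differently. Results are therefore also given without it where that changes a call.

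Of the 59 enzyme rows, 51 passed the filter on low counts and were tested. In iridophores 24 were lower and 5 higher at an edgeR adjusted p under 0.05, with the adjustment made over all 6849 genes tested. The share called lower was 47.1%, against 17.8% of all tested genes, and the share called higher was 9.80%, against 22.1%. Calls in either direction made up 39.9% of all tested genes. The median log2 fold change of the 51 rows was -0.71, against 0.01 over all tested genes. CPM values of the groups did not overlap in 36 of the 51 rows, against 51.8% of all tested genes, and these included all 29 called rows. In bulk samples, fewer cells of a type and less RNA per cell cannot be told apart.

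The 5 rows that rose were tpi1a, gapdhs, ldhba, idh3a and mdh1aa. For each of them, at least 1 other row grouped under the same enzyme name fell: tpi1b and tpi1b_1, gapdh, ldha and ldhd, idh3b_1 and idh3g_1, and mdh2. These 5 were the only ones of 22 enzymes with tested rows to hold calls in both directions. Hexokinase, phosphoglycerate kinase, dihydrolipoamide dehydrogenase, citrate synthase, fumarase and pyruvate carboxylase had 1 tested row each and could not. For isocitrate dehydrogenase the rows that fell are suffixed rows of other subunits than that of idh3a. The row ldhd is a dehydrogenase of D-lactate, and mdh1aa and mdh2 are cytosolic and mitochondrial. The falls were moderate: 13 of the 24 rows had a log2 fold change above -1, and 11 one of -1 or less. Taken as a sum, the 59 rows held 1.96% to 2.15% of the counts in iridophores, against 2.79% to 2.97% in control cells.

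**Figure D1:**
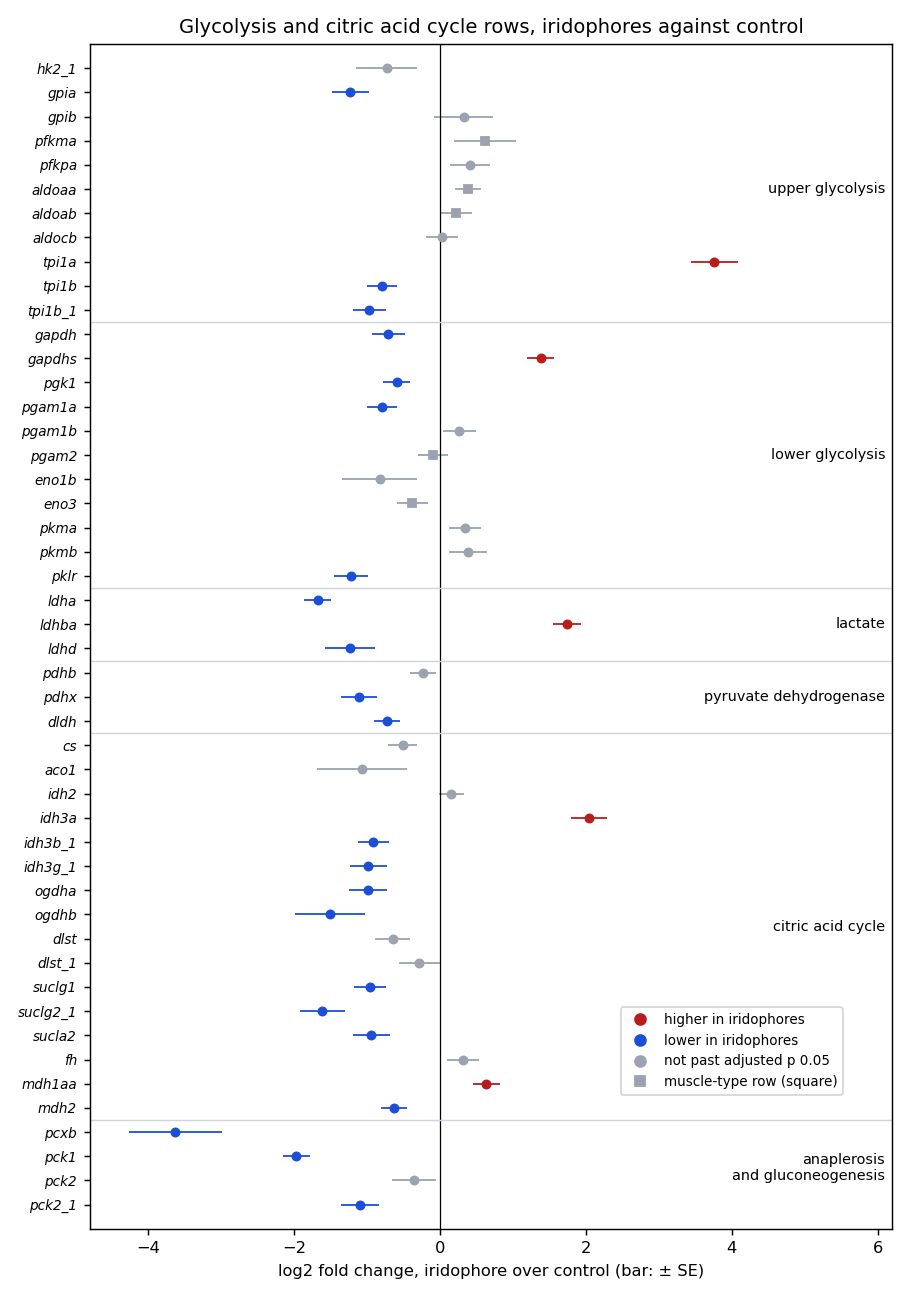
Log2 fold change of 48 of the 51 tested rows, iridophore over control, ordered by pathway stage, with bars of ± SE from edgeR (n = 3 libraries each). The 5 rows that rose stand to the right of 0, and 22 of the rows drawn fell, and the 5 muscle-type rows (squares), at -0.38 to 0.62, are among those not called.

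The sums by stage did not all move alike. Rows of upper glycolysis (hexokinase to triosephosphate isomerase) summed to 4395 ± 748 CPM in iridophores and 6875 ± 221 CPM in control cells, 63.9% of the control level. Rows of lower glycolysis (glyceraldehyde phosphate dehydrogenase to pyruvate kinase) summed to 8242 ± 1597 CPM in iridophores and 10206 ± 529 CPM in control cells, or 80.8%. In both stages every iridophore library lay below every control library. Lactate dehydrogenase rows summed to 1458 ± 163 CPM in iridophores and 1234 ± 63.7 CPM in control cells, with values of 1299, 1625 and 1449 CPM in iridophores that all lay above the 1161 to 1279 CPM of the control. Pyruvate dehydrogenase rows, dihydrolipoamide dehydrogenase included, came to 67.4% of the control level and rows of pyruvate carboxylase and phosphoenolpyruvate carboxykinase to 30.0%, both without overlap.

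Rows of the citric acid cycle summed to 6609 ± 707 CPM in iridophores and 6643 ± 379 CPM in control cells, and the libraries overlapped. That sum is dominated by mdh1aa, a cytosolic malate dehydrogenase. Without mdh1aa, a choice made after the values were seen, the other rows summed to 3030 ± 309 CPM in iridophores and 4341 ± 115 CPM in control cells, or 69.8%. No test was made of these sums.

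**Figure D2:**
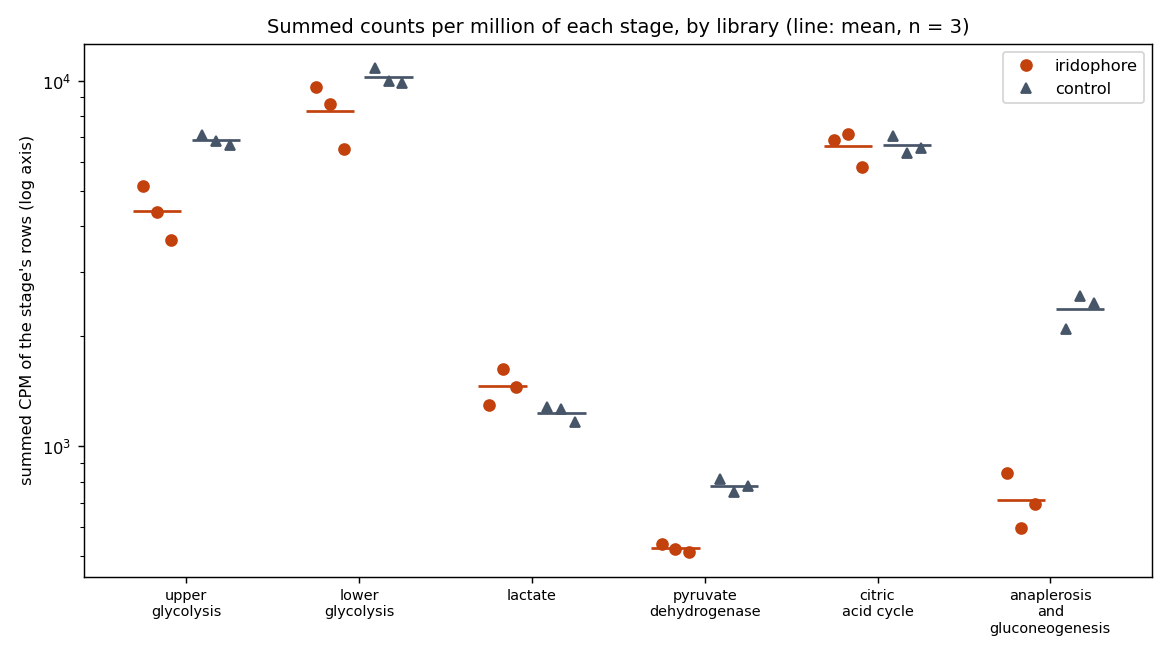
Summed CPM (log axis) of the rows of each stage in each library, with iridophore libraries as circles, control libraries as triangles and lines at the means (n = 3 each). The groups overlap in the citric acid cycle alone, and the widest gap is in the anaplerosis and gluconeogenesis rows, at 30.0% of the control level.

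Among the early steps, hexokinase, which phosphorylates glucose, was represented by hk2_1 alone, with 3.66, 5.81 and 7.31 CPM in iridophores against 7.48, 13.1 and 10.8 CPM in control cells. The values did not overlap but the row was not called (log2 fold change -0.73, edgeR adjusted p 0.189), and it had 2 to 13 counts per iridophore library. Glucose-6-phosphate isomerase, the next enzyme, was carried mostly by gpia. It had 264, 195 and 150 CPM in iridophores against 576, 454 and 381 CPM in control cells, and fell by 1.23 on the log2 scale (SE 0.26, edgeR adjusted p 0.00436). Every iridophore library was below every control library. Its paralog gpib, at 13.0 ± 7.43 CPM in iridophores and 11.8 ± 3.11 CPM in control cells, was not called (edgeR adjusted p 0.557).

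Phosphofructokinase, the committed step of glycolysis, was measured at low levels. The platelet-type row pfkpa had 28.5 ± 7.56 CPM in iridophores and 22.3 ± 2.79 CPM in control cells (log2 fold change 0.41, edgeR adjusted p 0.268). The rows pfkla and pfkpb were not tested for low counts.

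Aldolase splits fructose bisphosphate into 2 triose phosphates. The brain-type row aldocb was not called, with 249.9 ± 58.7 CPM in iridophores and 244.5 ± 9.99 CPM in control cells (log2 fold change 0.03, edgeR adjusted p 0.937).

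Triosephosphate isomerase interconverts the triose phosphates, and its rows gave the largest contrast. The row tpi1a had 49.5, 62.4 and 47.2 CPM in iridophores against 2.99, 5.36 and 3.59 CPM in control cells, a 13.3-fold difference of means (log2 fold change 3.76, SE 0.32, edgeR adjusted p 1.896e-05). Every iridophore library was far above every control library. The row tpi1b had 526, 417 and 354 CPM in iridophores against 819, 711 and 709 CPM in control cells (log2 fold change -0.79, SE 0.20, edgeR adjusted p 0.0119). The row tpi1b_1 had 103 ± 22.4 CPM in iridophores and 201 ± 23.5 CPM in control cells (log2 fold change -0.97, edgeR adjusted p 0.00733). How reads were divided between tpi1b and this suffixed row is not known.

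Because tpi1b remained the main row, tpi1a took 7.07%, 11.2% and 9.35% of the triosephosphate isomerase counts in iridophores and 0.285%, 0.595% and 0.397% in the control. Summed over the 3 rows, the enzyme stood at 61.8% of the control level. Such shares compare the same row between libraries and do not depend on how libraries were scaled. Rows of different genes were not compared per length. The 95% Wilson intervals of the tpi1a shares reached at most 3.54 percentage points to either side, and cover counting error only.

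Glyceraldehyde-3-phosphate dehydrogenase, which carries out the oxidation step, showed the same split. The row gapdhs, a paralog that bears the name of the sperm form of mammals, had 1649, 1972 and 1396 CPM in iridophores against 626, 688 and 615 CPM in control cells. Every iridophore library was above every control library, with a log2 fold change at 1.38 (SE 0.19, edgeR adjusted p 0.000397). The row gapdh had 3512, 2460 and 1867 CPM in iridophores against 4484, 4105 and 4192 CPM in control cells (log2 fold change -0.71, SE 0.23, edgeR adjusted p 0.0327). It spread widely among iridophore libraries, and its call was lost when any library but iridophore replicate 1 was left out (edgeR adjusted p 0.0502 to 0.106). As a share of the enzyme's counts, gapdhs took 39.7% ± 6.80 in iridophores and 13.1% ± 1.09 in the control, while the summed level was 87.4% of the control.

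The single row of phosphoglycerate kinase, pgk1, which makes the first ATP of glycolysis, had 487, 552 and 465 CPM in iridophores against 838, 745 and 682 CPM in control cells. It fell by 0.59 (SE 0.18, edgeR adjusted p 0.0269), without overlap, and lost the call without control replicate 1 (edgeR adjusted p 0.0785) or control replicate 2 (edgeR adjusted p 0.0531). Phosphoglycerate mutase was carried mostly by pgam1a, with 625, 530 and 404 CPM in iridophores against 952, 916 and 835 CPM in control cells (log2 fold change -0.80, SE 0.21, edgeR adjusted p 0.0121). Its paralog pgam1b was not called, at 45.3 ± 3.76 CPM in iridophores and 37.5 ± 5.42 CPM in control cells (log2 fold change 0.26, edgeR adjusted p 0.385).

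Pyruvate kinase closes glycolysis. The row pklr, named for the liver and red cell form, had 194, 158 and 118 CPM in iridophores against 394, 350 and 339 CPM in control cells (log2 fold change -1.22, SE 0.23, edgeR adjusted p 0.00227). Every iridophore library was lower. The rows of the other form, pkma and pkmb, were not called, with log2 fold changes of 0.34 and 0.38 (edgeR adjusted p 0.236 and 0.265). Without replicate 1 of both groups pkma was called higher, at 0.54 (edgeR adjusted p 0.0313). As a share of pyruvate kinase counts, pklr took 23.1% ± 7.52 in iridophores and 46.2% ± 1.60 in the control, with no overlap.

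**Figure D3:**
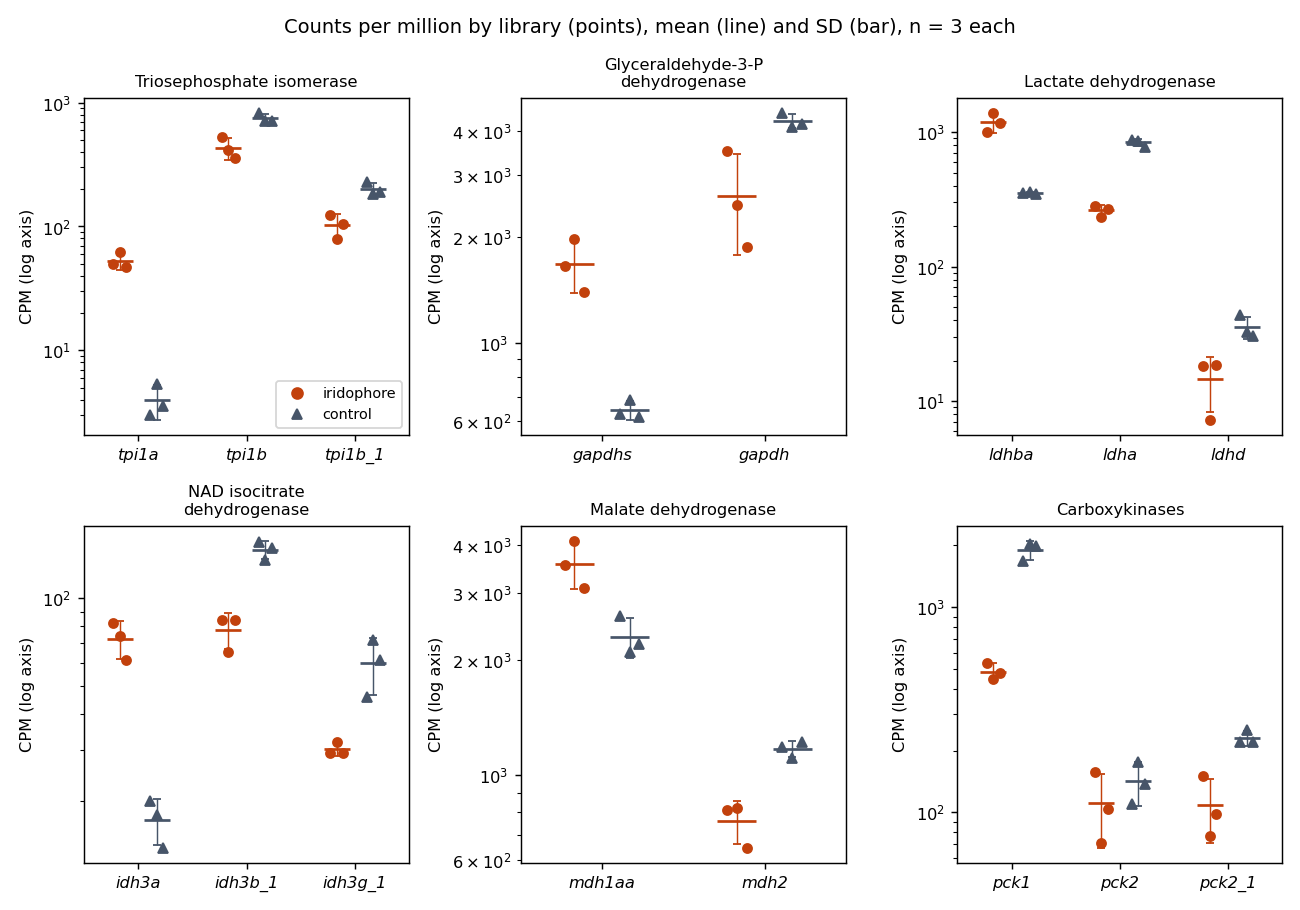
CPM (log axis) of the rows of 6 enzymes in each library, with iridophores as circles, control as triangles, a line at the mean and a bar for the SD (n = 3 each). In the first 5 panels the leftmost row is higher in iridophores and the other rows are lower, and among the carboxykinases pck1 shows the widest gap.

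Lactate dehydrogenase also had rows that moved in opposite directions. In mammals the A subunit prevails in skeletal muscle and the B subunit in heart. The B-type row ldhba had 995, 1379 and 1159 CPM in iridophores against 353, 361 and 346 CPM in control cells, a 3.33-fold difference of means (log2 fold change 1.74, SE 0.19, edgeR adjusted p 9.929e-05). The A-type row ldha had 284, 234 and 269.9 CPM in iridophores against 879, 864 and 778 CPM in control cells (log2 fold change -1.68, SE 0.18, edgeR adjusted p 9.849e-05). Neither row overlapped between the groups, and the changes were of nearly equal size in opposite directions.

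As a share of all lactate dehydrogenase counts, ldhd included, ldhba took 76.6%, 84.9% and 79.98% in iridophores and 27.6%, 28.7% and 29.8% in the control. The 95% Wilson intervals of these shares reached at most 3.26 percentage points to either side. The main row of the enzyme was thus ldhba in every iridophore library and ldha in every control library. The row ldhd, a dehydrogenase of D-lactate, had 14.7 ± 6.46 CPM in iridophores and 35.6 ± 6.78 CPM in control cells (log2 fold change -1.23, SE 0.34, edgeR adjusted p 0.0169). The second B-type row, ldhbb, was not tested for low counts.

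**Figure D4:**
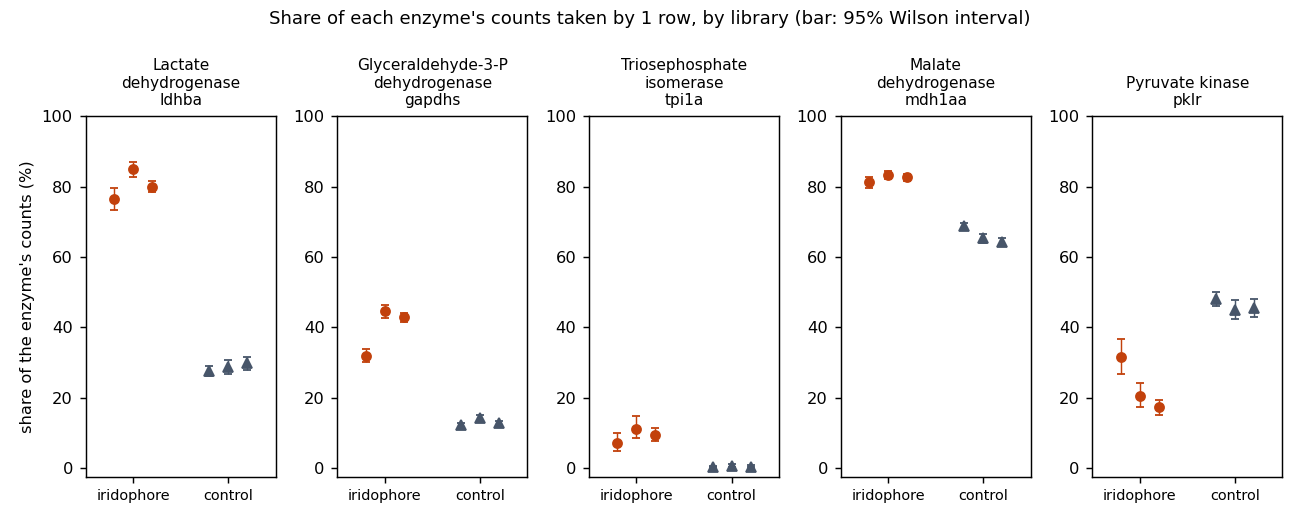
Share of each enzyme's counts (%) taken by 1 named row in each library, with iridophores as circles and control as triangles and bars for the 95% Wilson interval. The share of ldhba is 76.6% to 84.9% in iridophores, against 27.6% to 29.8% in control cells, and the groups do not overlap in any of the 5 panels.

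The pyruvate dehydrogenase complex turns pyruvate into acetyl-CoA. The row pdhx, its component that binds the third enzyme of the complex, had 45.8, 29.0 and 41.6 CPM in iridophores against 98.4, 80.4 and 73.3 CPM in control cells (log2 fold change -1.11, SE 0.25, edgeR adjusted p 0.00556). The row dldh, dihydrolipoamide dehydrogenase, which serves this complex and that of 2-oxoglutarate, had 271, 247 and 254 CPM in iridophores against 452, 402 and 422 CPM in control cells (log2 fold change -0.73, SE 0.18, edgeR adjusted p 0.00969). Both fell without overlap. The row pdhb, a subunit of the first enzyme of the complex, was not called, with 229 ± 15.9 CPM in iridophores and 269 ± 10.5 CPM in control cells (log2 fold change -0.23, edgeR adjusted p 0.338), although the groups did not overlap.

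Of 18 tested rows of the citric acid cycle, 9 fell and 2 rose. These are shares of 50% and 11.1%, against 17.8% and 22.1% of all tested genes. Without the cytosolic row mdh1aa, left out after the values were seen, 9 of 17 fell and 1 rose (52.9% and 5.88%). Entry into the cycle is by citrate synthase, cs, which was not called at 87.6 ± 7.60 CPM in iridophores and 126 ± 11.0 CPM in control cells (log2 fold change -0.51, edgeR adjusted p 0.0659), without overlap. With replicate 1 of both groups left out it was called lower (edgeR adjusted p 0.0364). The same held with the library name ending as a term, upper-quartile factors or library size alone (edgeR adjusted p 0.0229 to 0.0497).

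The NAD-dependent isocitrate dehydrogenase is assembled from alpha, beta and gamma subunits. The alpha row idh3a had 82.4, 74.1 and 61.3 CPM in iridophores against 20.04, 17.9 and 13.8 CPM in control cells, a 4.21-fold difference of means (log2 fold change 2.04, SE 0.25, edgeR adjusted p 0.000192). The beta row idh3b_1 had 84.3, 65.3 and 84.4 CPM in iridophores against 156, 136 and 149 CPM in control cells (log2 fold change -0.91, SE 0.21, edgeR adjusted p 0.00656). The gamma row idh3g_1 had 29.3, 31.9 and 29.2 CPM in iridophores against 45.8, 72.0 and 61.5 CPM in control cells (log2 fold change -0.98, SE 0.25, edgeR adjusted p 0.0117). The alpha row thus rose while the beta and gamma rows, both with suffixed symbols, fell, and none overlapped. There was no row named idh3b or idh3g without a suffix. Any reads given to those names are not seen here, so the levels of the beta and gamma subunits are uncertain. The mitochondrial NADP-dependent enzyme, idh2, was not called, with 833 ± 64.4 CPM in iridophores and 749 ± 46.0 CPM in control cells (log2 fold change 0.15, edgeR adjusted p 0.510).

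The 2-oxoglutarate dehydrogenase complex follows. Its first enzyme is given by ogdha, with 33.0, 29.0 and 27.6 CPM in iridophores against 47.9, 74.4 and 53.8 CPM in control cells (log2 fold change -0.98, SE 0.26, edgeR adjusted p 0.0125). Leaving out iridophore replicate 3 ended its call (edgeR adjusted p 0.0508). The second row of this enzyme, ogdhb, had 1 to 4 counts per iridophore library (log2 fold change -1.51, edgeR adjusted p 0.0313) and lost its call when any library but iridophore replicate 1 was left out (edgeR adjusted p 0.0803 to 0.141). The rows dlst and dlst_1, the second enzyme of the complex, were not called, with log2 fold changes of -0.65 and -0.28 (edgeR adjusted p 0.0555 and 0.461). With replicate 1 of both groups left out dlst was called lower (edgeR adjusted p 0.0346). It was also called lower without iridophore replicate 1, and with the replicate number or library name ending as a term. The same held with upper-quartile factors, library size alone or no filter (edgeR adjusted p 0.0229 to 0.0468 over these settings).

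All 3 rows of succinyl-CoA ligase, which makes the nucleoside triphosphate of the cycle, fell without overlap. The row suclg1, the alpha subunit, had 1008, 669 and 626 CPM in iridophores against 1639, 1440 and 1387 CPM in control cells (log2 fold change -0.96, SE 0.22, edgeR adjusted p 0.00674). The beta subunit that makes GTP, suclg2_1, had 14.7, 34.9 and 19.7 CPM in iridophores against 74.8, 57.1 and 78.4 CPM in control cells (log2 fold change -1.62, SE 0.31, edgeR adjusted p 0.00254). The beta subunit that makes ATP, sucla2, had 31.1, 23.2 and 41.1 CPM in iridophores against 58.0, 66.7 and 65.1 CPM in control cells (log2 fold change -0.94, SE 0.25, edgeR adjusted p 0.0144). The 3 rows summed to 50.7% of the control level.

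Fumarase, fh, was not called, at 187 ± 22.0 CPM in iridophores and 149 ± 29.0 CPM in control cells (log2 fold change 0.32, edgeR adjusted p 0.277). Malate dehydrogenase, the last step, had 1 called row in each compartment, and they moved in opposite directions. The cytosolic row mdh1aa had 3541, 4103 and 3093 CPM in iridophores against 2609, 2097 and 2202 CPM in control cells (log2 fold change 0.64, SE 0.18, edgeR adjusted p 0.0194). The mitochondrial row mdh2 had 809.7, 820 and 647 CPM in iridophores against 1186, 1112 and 1226 CPM in control cells (log2 fold change -0.63, SE 0.18, edgeR adjusted p 0.0189). Neither overlapped. The call of mdh1aa was lost without iridophore replicate 2, control replicate 2 or control replicate 3 (edgeR adjusted p 0.0800 to 0.175) and with upper-quartile scaling (0.0567), and that of mdh2 without control replicate 3 (0.0664). As a share of malate dehydrogenase counts, mdh1aa took 82.4% ± 1.01 in iridophores and 66.0% ± 2.39 in the control.

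Pyruvate carboxylase makes oxaloacetate from pyruvate, and phosphoenolpyruvate carboxykinase makes phosphoenolpyruvate from oxaloacetate on the way to glucose. The cytosolic carboxykinase pck1 had 537, 444 and 475 CPM in iridophores against 1676, 2038 and 1998 CPM in control cells, 25.5% of the control mean (log2 fold change -1.97, SE 0.18, edgeR adjusted p 3.353e-05). The spread within each group was small beside the gap. Of the mitochondrial rows, pck2_1 fell, with 108 ± 37.7 CPM in iridophores and 229.7 ± 18.1 CPM in control cells (log2 fold change -1.10, edgeR adjusted p 0.00765). The row pck2 was not called, at 111 ± 43.6 CPM in iridophores and 141 ± 33.5 CPM in control cells (edgeR adjusted p 0.375), but without replicate 1 of both groups it was, at -0.84 (edgeR adjusted p 0.0133).

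The carboxylase row pcxb had 0, 0 and 27 counts in iridophore replicates 1, 2 and 3, against 276, 158 and 217 counts in the control. Its iridophore mean was 5.28% of the control mean, and its fitted fold change (log2 -3.62, edgeR adjusted p 0.00160) depends on replicate 3, without which the iridophore group was at 0 counts and the row was still called (edgeR adjusted p 0.000155). The row pcxa was not tested for low counts.

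The muscle-type rows were set apart by name, since these isozymes prevail in mammalian muscle: aldolase A (aldoaa, aldoab), phosphofructokinase M (pfkma), phosphoglycerate mutase 2 (pgam2) and beta enolase (eno3). None of the 5 was called, and 0 were past an unadjusted p of 0.05. DESeq2 also called 0 of them. Their log2 fold changes ran from -0.38 to 0.62. The row aldoaa had 694, 857 and 681 CPM in iridophores against 599, 576 and 532 CPM in control cells, without overlap (log2 fold change 0.39, edgeR adjusted p 0.119). The row eno3 had 2477, 2166 and 1464 CPM in iridophores against 2851, 2534 and 2556 CPM in control cells, also without overlap (log2 fold change -0.38, edgeR adjusted p 0.183). It was called lower without iridophore replicate 1 (edgeR adjusted p 0.0467) and with library size as the only scaling (edgeR adjusted p 0.0307). The row pgam2 had 158 ± 21.4 CPM in iridophores and 168 ± 17.8 CPM in control cells, and aldoab 227 ± 27.6 CPM in iridophores and 195.5 ± 34.4 CPM in control cells. In these libraries eno3 held 99.4% to 99.9% of the enolase counts of iridophores and 99.2% to 99.7% of those of the control. These shares are over 3 rows alone: eno1b and eno2 had few counts, and eno1a had no row of that name among those analysed.

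The 5 muscle-type rows summed to 3173 ± 546 CPM in iridophores and 3585 ± 188 CPM in control cells, with overlap. For the marker lists that follow, the shares over all tested genes were 22.1% called higher and 17.8% called lower. Skeletal muscle markers did not move as the muscle-type rows did. Of 29 tested markers 17 were higher and 0 lower, and the 34 markers in the table summed to 27151 to 31511 CPM in iridophores against 14172 to 17602 CPM in control cells, with none at 0 counts in all iridophore libraries. The largest changes were in pvalb2, ttn.1 and pvalb1, at 3.85, 1.78 and 1.77 on the log2 scale. The other 12 tested markers were not called, with log2 fold changes from -1.315 (actn3b, edgeR adjusted p 0.0698) to 0.413 (myhz2). The part of muscle transcripts in the muscle-type rows and in ldha was not tested.

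Markers of liver, intestine and pancreas moved beside the rows that fell. Of 22 tested markers 9 were lower and 0 higher, led by vil1, cpa5 and chia.2 with log2 fold changes of -1.96, -1.64 and -1.56. The groups overlapped for cpa5, with 879, 1336 and 1559 CPM in iridophores and 1144, 4927 and 5672 CPM in control cells. The other 13 markers were not called. Those of liver differed: tfa was lower (log2 fold change -1.49, edgeR adjusted p 0.000738), but fabp10a was not called (-0.04, edgeR adjusted p 0.958). The 23 markers in the table summed to 25534, 13784 and 12852 CPM in iridophores against 35434, 35250 and 36283 CPM in control cells. Markers of kidney and ionocytes, which handle salt and acid, had 7 of 12 tested lower and 1 higher, with sums of 311 to 491 CPM in iridophores and 1200 to 1294 CPM in control cells. Iridophore replicate 1 was the highest iridophore library in both sums. It was also the highest iridophore library in 15 of the 24 rows that fell and in 1 of the 5 that rose. How often it was highest over all tested genes was not counted. The CPM of all tested genes also summed highest in it, at 1116762, 1074528 and 932011 CPM in iridophore replicates 1, 2 and 3. None of the liver, intestine, pancreas, kidney and ionocyte markers was at 0 counts in all iridophore libraries. Their part in the falls of pklr, pck1 and the other rows was not tested.

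Of the other marker lists, erythrocyte genes had 6 of 7 tested lower and 0 higher, with sums of 818 to 915 CPM in iridophores and 1653 to 2225 CPM in control cells. The row hbbe3 was at 0 counts in all iridophore libraries, but it had only 2, 5 and 6 counts in the control and was not tested. The part of erythrocyte transcripts in the fall of pklr was not tested. Epidermis genes had 3 of 13 tested higher and 3 lower, neuron and photoreceptor genes 1 of 11 higher and 0 lower, melanophore genes 1 of 5 higher and 0 lower, and xanthophore genes 2 of 4 higher and 2 lower. Of the leukocyte genes 1 was tested and it was higher.

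Genes next to these enzymes in the pathway were read from lists of their own. Over all tested genes 22.1% were called higher and 17.8% lower, and the counts of these short lists are to be read beside those shares. Of 5 tested glucose and lactate transporters, 1 was higher and 1 lower. The intracellular glucose transporter gene slc2a8 had 9, 9 and 33 counts in iridophores against 4, 1 and 0 in the control libraries 1, 2 and 3, and rose by a log2 fold change of 4.41 (SE 0.56 and edgeR adjusted p 0.000250), or 5.44 without control replicate 1. The gene slc2a2, the transporter of liver and intestine, had 39.4 ± 9.54 CPM in iridophores and 95.6 ± 10.17 CPM in control cells and fell by 1.29 (SE 0.24, edgeR adjusted p 0.00218). The row pck1 also fell, and whether the falls are linked was not tested.

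Among 11 tested regulators and side branches of glycolysis, 2 were higher and 4 lower. The gene gpd1a, a cytosolic glycerol-3-phosphate dehydrogenase that draws on the triose phosphates, had 25.7, 36.3 and 37.7 CPM in iridophores against 4.19, 2.98 and 5.13 CPM in control cells (log2 fold change 3.01, SE 0.33, edgeR adjusted p 8.910e-05). Its tested paralogs gpd1b and gpd1c, picked once values were known, did not pass (log2 fold changes 0.02 and -0.50, edgeR adjusted p 0.973 and 0.193), but gpd1c was called lower when iridophore replicate 1 was left out (-0.91, edgeR adjusted p 0.00770). With both replicates numbered 1 left out it was also lower (-0.82, edgeR adjusted p 0.00652). A further setting that called gpd1c lower was the library name ending as a term (-0.55, edgeR adjusted p 0.0395). The bifunctional regulators pfkfb1 and pfkfb4a, which set the level of the activator of phosphofructokinase, were lower. Their log2 fold changes were -1.95 and -1.90 (edgeR adjusted p 0.000809 and 0.00457). The family did not move as one: pfkfb4b was called higher, with 50.8 ± 17.87 CPM in iridophores and 28.7 ± 5.32 CPM in control cells (log2 fold change 0.87, edgeR adjusted p 0.0364). The paralog pfkfb3 was not called, with 53.6 ± 26.65 CPM in iridophores and 76.5 ± 9.78 CPM in control cells (edgeR adjusted p 0.301). Both were picked once values were known and were not followed through the alternatives.

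Genes that release or store glucose were mostly not called. Of 3 tested genes of gluconeogenesis, slc37a4a, the carrier of glucose-6-phosphate into the endoplasmic reticulum, fell by 1.42 (edgeR adjusted p 0.000562), and 0 were higher. Of 10 tested genes of glycogen metabolism 2 were lower and 0 higher. The 20% called lower is near the 17.8% of all tested genes. The glycogen phosphorylase gene pygb had 16.4 ± 4.85 CPM in iridophores and 66.8 ± 3.38 CPM in control cells (log2 fold change -1.93, edgeR adjusted p 0.000342). The glycogen synthase gene gys1 fell by 1.03 (edgeR adjusted p 0.0407), a call lost without iridophore replicate 2 or 3 or control replicate 1 or 2 (edgeR adjusted p 0.0578 to 0.135).

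At the mitochondrial entry, mpc2, a subunit of the pyruvate carrier, had 90.2 ± 17.8 CPM in iridophores and 45.6 ± 10.9 CPM in control cells (log2 fold change 0.96, SE 0.26, edgeR adjusted p 0.0149). It was the one gene called of 4 tested, and its call was lost without control replicate 2 (edgeR adjusted p 0.109) or control replicate 3 (edgeR adjusted p 0.0508). Its partner mpc1, picked once its value was known, did not pass (log2 fold change -0.36, edgeR adjusted p 0.165). Of 4 tested genes of succinate dehydrogenase and its assembly, the catalytic subunit gene sdha was lower, with 186 ± 32.9 CPM in iridophores and 357 ± 20.5 CPM in control cells (log2 fold change -0.94, edgeR adjusted p 0.00510), and 0 were higher.

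Of 10 tested genes of citrate export, malic enzymes and the malate-aspartate shuttle, 5 were lower and 0 higher. The cytosolic aspartate aminotransferase gene got1 had 11.0, 26.1 and 33.7 CPM in iridophores against 81.4, 152 and 152 CPM in control cells (log2 fold change -2.34, SE 0.38, edgeR adjusted p 0.000998). It fell while mdh1aa, the cytosolic partner of got1 in that shuttle, rose. The malic enzyme gene me3 fell by 1.98 (edgeR adjusted p 0.00642), with a value of -3.27 without iridophore replicate 3, and me1 fell by 1.53 (edgeR adjusted p 0.0331), a call lost without iridophore replicate 2 or 3 or control replicate 1 (edgeR adjusted p 0.104 to 0.137).

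The hypoxia-inducible pathway, which controls many glycolytic genes in vertebrates, had 12 genes tested, with 1 higher and 3 lower. These are shares of 8.33% and 25%, against 22.1% and 17.8% of all tested genes. The target genes ndrg1a, vegfaa and igfbp1b had log2 fold changes of -1.57, -1.40 and -1.40 (edgeR adjusted p 0.000696, 0.0129 and 0.0250). The other 8 tested genes were not called, with log2 fold changes from -0.62 (egln1b) to 0.86 (bnip3lb). Among them was igfbp1a, at 0.05. The gene ddit4 was not tested, with 8.30 ± 3.49 CPM in iridophores and 2.46 ± 1.60 CPM in control cells. The call of igfbp1b was lost without iridophore replicate 3, control replicate 2 or control replicate 3 (edgeR adjusted p 0.0562 to 0.110). The 1 gene that rose was epas1a, an alpha subunit of the factor, at 1.17 (edgeR adjusted p 0.0337), named since it is the only call in that direction. It had 7 to 24 counts per iridophore library, and its call was lost without iridophore replicate 2 or 3 or control replicate 1 or 3 (edgeR adjusted p 0.0765 to 0.135), with both replicates numbered 1 left out (edgeR adjusted p 0.108), with upper-quartile factors (edgeR adjusted p 0.0580), without a filter (edgeR adjusted p 0.0529) and with DESeq2 (adjusted p 0.0733).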

How the data were processed

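The table deposited by the authors holds raw, whole-number counts for each gene symbol, not normalized, for 6 bulk MARS-seq libraries, a 3' end counting method. Per the submitters' processing notes, cutadapt, STAR 2.5.2b, HTSeq and DESeq2 1.36.1 were used with build danRer11. Their settings, the annotation, strand setting, the use of molecular identifiers and the gene filter are not given in the sources used here. The highest count of any row was at least 6 in every row. Reads of near-identical paralogs may have been split or dropped, and 9 member symbols carry a numeric suffix (tpi1b_1), so such rows are uncertain. All 60 matched symbols, without suffix, are RefSeq symbols (GRCz12tu, used for names alone).

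Columns were matched to samples by library name, and 0 columns were left without a sample. The counts were fitted with edgeR 4.0.16 (R 4.3.3): expression filter (minimum count 10, minimum total 15; 6849 genes with 98.7% of counts), TMM scaling, quasi-likelihood F test with group as the only term, and Benjamini-Hochberg adjustment over all genes tested, threshold 0.05. SEs are the absolute log2 fold change over the square root of F. CPM use TMM-scaled library sizes. The test was tested on simulated data. Members and lists were chosen with earlier results of these data known. Named with values were all called members, the tested rows of the same enzyme, and the 3 largest called changes of each other list; 3 tested member rows are counted but not reported here by name. Alternatives were leaving out each library, the replicate number or library name ending as a term, RLE, upper-quartile or no scaling factors, no filter, DESeq2 1.42.0 and, added after seeing the data, leaving out replicate 1 of both groups.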

Additional observations from a re-analysis of the deposited data

How the results depend on the processing

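Depth limits weak rows most: 8 of the 59 enzyme rows had at most 15 counts in any library and were not tested, and hk2_1 and ogdhb rest on few iridophore counts. Under all 14 alternatives, 22 of the 29 called rows kept call and direction; the others (among them gapdh, mdh1aa, mdh2, ogdha, ogdhb and pgk1) kept their direction and lost the call under at least 1. Leaving out 1 library gave 4 to 5 rows higher and 21 to 26 lower, and over all genes 1248 to 1704 higher and 860 to 1396 lower. Without replicate 1 of both groups 6 rows were higher and 28 lower. With library name endings as a term in the fit there were 5 and 27, without a filter 6 and 25, and with DESeq2 5 and 24. Upper-quartile factors moved the median log2 fold change of all genes to -0.14, against 0.01, and gave 4 rows higher and 27 lower; the calls of tpi1a, gapdhs, ldhba and idh3a held there.

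Deviations from group means correlated at 0.310, 0.0691 and 0.172 between the iridophore and control libraries of replicates 1, 2 and 3. Libraries of unlike number were not compared, so whether the replicate numbers pair the libraries was not tested. With the replicate block 5 rows were higher and 25 lower; ogdhb lost its call (adjusted p 0.0682), and dlst gained one.

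Reversals were in rows that were not called in either fit, and the cause was not tested. The log2 fold change of aldocb, 0.03, was -0.0080 without replicate 1 of both groups, -0.13 with upper-quartile factors, -0.088 with library size alone and -0.052 without a filter, and -0.17 to 0.14 when 1 library was left out. That of gpib, 0.32, was -0.43 (without iridophore replicate 3) to 0.53 when 1 library was left out, and that of idh2, 0.15, was -0.0027 with upper-quartile factors. That of gpd1b, 0.02, was -0.020 with the replicate block, -0.021 with the library name ending, -0.0079 with RLE factors, -0.14 with upper-quartile factors, -0.096 with library size alone, -0.057 without a filter and -0.47 without replicate 1 of both groups, and -0.39 to 0.23 when 1 library was left out.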
